A study of Mus musculus with 6 samples.

Results

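The TCF/LEF transcription factors Tcf7 (which encodes Tcf1), Lef1 and Tcf7l2, beta-catenin (Ctnnb1), the Groucho corepressors Tle1, Tle2, Tle3 and Tle4, and Axin2 and Apc of the beta-catenin destruction complex were followed as RNA in mouse CD8+ T cells. These 10 genes were taken by symbol from a deposited table of 23951 genes, and all 10 were found. Naive CD8+ T cells of the spleen (sort gate GFP+ TCRbeta+ CD62Lhi CD44lo-med CD8+) were kept in culture for 72 h. The medium held IL-7 with IL-15, cytokines that keep T cells alive and drive slow division. The double-knockout (DKO) group, labelled Tcf1-/-Lef1-/-, came from mice with hCD2-Cre, the Rosa26-lsl-GFP reporter and floxed Tcf1 and Lef1 alleles. The wild-type (WT) group came from mice that also carried hCD2-Cre and Rosa26-lsl-GFP, with wild-type Tcf1 and Lef1. In both groups hCD2-Cre, which is driven by human CD2 regulatory sequence active in lymphocytes, switches on GFP, so the sort took cells with a history of Cre activity. The labels give no age of the mice and do not say which exons were floxed.

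TCF and LEF proteins bind DNA through an HMG box and act in part through partner proteins. Bound by beta-catenin they recruit coactivators, and bound by Groucho (Tle) proteins they recruit histone deacetylases and repress. A destruction complex built on Axin and Apc keeps beta-catenin low in the absence of Wnt signals. In T cells Tcf1 and Lef1 are needed for thymic development and for the identity and long-term maintenance of CD8+ cells.

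The series holds 3 DKO and 3 WT libraries, all at 72 h, named here by the numbers 0 to 2 of the deposited columns. These numbers could not be matched to the replicates 1 to 3 of the labels. Separate animals or cultures are not stated for the libraries, so the spread behind each p-value may be technical. Values are FPKM, fragments scaled to gene length and library size, and hold no absolute depth. From 10473 to 10551 genes reached 1 FPKM in each library. Among markers of the sorted cells, the 5 T cell genes found of 8 listed (Cd3 chains, Cd8a and Cd8b1) summed to 2780 to 3150 FPKM in DKO and 2700 to 3140 FPKM in WT libraries. Helper T cell markers (Cd4 and Zbtb7b) summed to 0.552 to 1.99 FPKM in DKO and 0.0701 to 0.195 FPKM in WT libraries. The 4 NK cell markers summed to 4.2 to 12.4 FPKM in DKO and 42.2 to 90.5 FPKM in WT libraries, nearly all of it Eomes, which CD8+ T cells also express. The 4 B cell markers summed to 18 to 27 FPKM in DKO and 13.3 to 21.8 FPKM in WT libraries, with Ms4a1 at 0 throughout. Myeloid markers, 5 in number, summed to 0.4 to 1.55 FPKM in DKO and 0.562 to 5.14 FPKM in WT libraries, and 4 erythroid markers to 0.14 to 0.229 FPKM in DKO and 0 to 0.241 FPKM in WT libraries. The part of these marker levels in the differences of the 10 genes was not tested.

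At 72 h, Tcf7, Lef1 and Tle3 fell in DKO cells and no other gene of the 10 passed the test. Both targeted factors were reduced but still transcribed, and Tle3 alone of the Groucho corepressors passed. RNA of beta-catenin was above WT in every DKO library without passing the test. Of the 10 genes, 8 reached the minimum mean of 1 FPKM for testing, and of these 3 were lower and 0 higher in DKO at an adjusted p under 0.05 (limma, Benjamini-Hochberg over 10723 genes). At an unadjusted limma p under 0.05 there were 5 of the 8, against 26.2% of all genes tested. Among all genes tested 10.7% were called, 6.36% lower and 4.31% higher. DKO and WT libraries did not overlap for 5 of the 8, against 34.1% of all genes tested, with 1 of the 8 higher (17% of all genes) and 4 lower (17.1%). The median difference of the 8 was -0.17 on the log2(FPKM + 1) scale, and that of all genes tested was 0.0082. These counts and the median include Tcf7 and Lef1, the genes targeted in DKO, so they do not describe the untargeted genes alone. Of the untargeted genes only Tle3 was called. Ctnnb1, Tle3 and Tle4 had an unadjusted limma p under 0.05, and the same genes did not overlap.

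Tcf7 encodes Tcf1, the most abundant TCF/LEF factor of naive T cells. It lies on chromosome 11 at 52252371 to 52283014, minus strand (GENCODE M21 on GRCm38, the source of all gene positions given here). DKO libraries 0, 1 and 2 held 288, 270 and 277 FPKM, against 564, 555 and 532 FPKM in WT libraries 0, 1 and 2. The groups lay far apart, and each was tight: 278 ± 9.52 FPKM in DKO and 550 ± 16.5 FPKM in WT (SD, n = 3 each). The difference was -0.98 on the log2(FPKM + 1) scale (SE 0.092, limma adjusted p = 0.0041), with DKO at 50.6% of WT. A value per gene also counts fragments from exons that were not floxed, so it does not measure how much intact transcript remained. In RNA from a population, fewer cells with a transcript and less transcript per cell cannot be told apart.

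Lef1, a close relative of Tcf1 with overlapping functions in T cells, lies on chromosome 3 at 131110471 to 131224356, plus strand. It stood at 48.5, 51.8 and 52.2 FPKM in DKO libraries 0, 1 and 2, against 132, 105 and 157 FPKM in WT libraries 0, 1 and 2. All DKO libraries were below all WT libraries, and the spread lay mainly in WT, with 50.9 ± 2.03 FPKM in DKO and 131 ± 26.3 FPKM in WT (SD, n = 3 each). The log2(FPKM + 1) difference was -1.33 (SE 0.15, limma adjusted p = 0.0066), with DKO at 38.7% of WT. Lef1 took 14.4%, 16.1% and 15.9% of the summed FPKM of Tcf7 and Lef1 in DKO libraries 0, 1 and 2, against 19.0%, 15.9% and 22.8% in WT libraries 0, 1 and 2. These shares overlapped (15.5% ± 0.929 in DKO and 19.2% ± 3.48 in WT, SD, n = 3 each, exact two-sided permutation p = 0.3). With 3 libraries against 3 this test cannot go below 0.1.

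Tcf7l2, the TCF factor best known from intestine and liver, lies on chromosome 19 at 55741820 to 55933654, plus strand, and was near the limit of detection. Its levels were 0.699, 0.909 and 0.624 FPKM in DKO libraries 0, 1 and 2, against 0.285, 0.373 and 0.347 FPKM in WT libraries 0, 1 and 2. Every DKO library was above every WT library, at 0.744 ± 0.148 FPKM in DKO and 0.335 ± 0.0453 FPKM in WT (SD, n = 3 each). Its mean lay below 1 FPKM, so it was not among the genes tested. With the minimum lowered to a mean of 0.1 FPKM its log2(FPKM + 1) difference was 0.38 (SE 0.089, limma adjusted p = 0.054), and with no minimum the adjusted p was 0.043. In the authors' deposited table it was higher in DKO at 72 h, with a log2 fold change of 1.15 and q = 0.0022. The fourth vertebrate TCF factor, Tcf7l1, named here after its values were seen, held 0.180, 0.205 and 0.411 FPKM in DKO libraries and 0.752, 0.556 and 1.05 FPKM in WT libraries. These groups did not overlap either, in the opposite direction to Tcf7l2. The authors' deposited table gives Tcf7l1 a log2 fold change of -1.57 with q = 0.032.

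**Figure D1:**
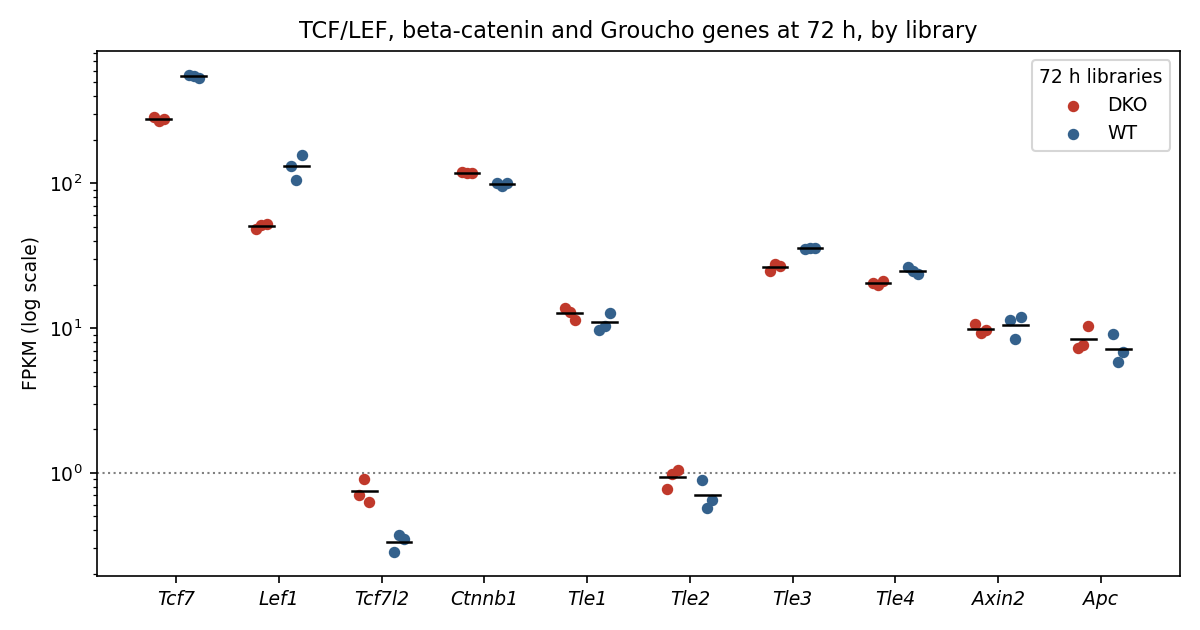
FPKM of each of the 10 genes (log axis) in the 3 DKO and 3 WT libraries at 72 h, where points are libraries and bars are group means. Tcf7, Lef1, Tle3 and Tle4 are lower and Tcf7l2 and Ctnnb1 higher in all 3 DKO libraries than in any WT library, and the other 4 genes overlap.

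TCF and LEF proteins are known to bind CTTTG followed by AT or TT, so the 250 bases before RefSeq start sites were read for these letters. RefSeq promoters (GRCm38.p6) were used for 9 of the genes, all but Apc, with 16 windows in all. CTTTG on either strand was found in 6 windows, which belong to 2 genes, Lef1 and Tcf7l2. That is 37.5% of the windows, against 48.6% of 32851 promoters of the same length. The windows are not all separate, and 4 of the 6 belong to Lef1. Lef1 windows from 131110047 and from 131110073 overlap and share a CTTTG, and the Ctnnb1 windows also overlap. CTTTGAT was in 0 of the windows and in 3.21% of promoters, and CTTTGTT was in 1 window and in 5.03% of promoters. Both longer motifs contain CTTTG and are counted there too. The sequences below are shown because Lef1 and Tcf7l2, which carry the letters, differed between the groups in opposite directions, while Tle3, lower in DKO, carries none. Lef1 is itself targeted in DKO, and Tcf7, the other targeted gene and also lower, carries none. The sequences were picked by these differences, so they cannot relate the letters to a direction. The Tcf7l2 window upstream of the annotated gene, with 1 CAAAG, is not shown. Those shown run 5′ to 3′ on the plus strand, with CTTTG, its reverse complement CAAAG or the longer motif in capitals. The first is Lef1 upstream of the annotated gene (chr3:131110047-131110296), the second an internal Lef1 start within an intron (chr3:131156044-131156293), the third an internal Tcf7l2 start within an intron (chr19:55895071-55895320) and the fourth Tle3 (chr9:61372116-61372365).
Lef1 upstream: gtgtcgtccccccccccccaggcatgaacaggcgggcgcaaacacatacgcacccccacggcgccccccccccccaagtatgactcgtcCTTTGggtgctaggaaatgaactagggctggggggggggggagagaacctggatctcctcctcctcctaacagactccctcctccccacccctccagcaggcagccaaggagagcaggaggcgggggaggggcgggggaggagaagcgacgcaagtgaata
Lef1 internal: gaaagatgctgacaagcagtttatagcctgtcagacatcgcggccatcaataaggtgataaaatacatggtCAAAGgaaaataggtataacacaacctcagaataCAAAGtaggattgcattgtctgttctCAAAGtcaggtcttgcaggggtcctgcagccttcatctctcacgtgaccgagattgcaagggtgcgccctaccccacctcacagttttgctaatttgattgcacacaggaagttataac
Tcf7l2 internal: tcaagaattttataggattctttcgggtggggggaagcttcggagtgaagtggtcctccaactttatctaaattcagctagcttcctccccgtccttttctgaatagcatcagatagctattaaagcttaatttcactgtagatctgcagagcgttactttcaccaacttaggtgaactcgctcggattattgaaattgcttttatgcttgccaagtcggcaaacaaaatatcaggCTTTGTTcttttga
Tle3 upstream: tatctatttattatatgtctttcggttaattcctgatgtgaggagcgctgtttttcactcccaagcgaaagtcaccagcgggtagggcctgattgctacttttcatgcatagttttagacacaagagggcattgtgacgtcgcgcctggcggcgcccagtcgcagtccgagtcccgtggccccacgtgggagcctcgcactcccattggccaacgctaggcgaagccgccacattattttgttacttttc
The Lef1 internal window holds the letters 3 times and the Lef1 upstream window 1 time. A match of letters is a description of the sequence, and no binding was measured here.

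Ctnnb1 encodes beta-catenin, the coactivator that binds the amino-terminal end of TCF/LEF proteins and also links cadherins to the cytoskeleton. It lies on chromosome 9 at 120929216 to 120960507, plus strand. DKO libraries 0, 1 and 2 held 121, 118 and 117 FPKM, against 100, 96.3 and 101 FPKM in WT libraries 0, 1 and 2. All DKO libraries were above all WT libraries, at 118 ± 1.84 FPKM in DKO and 99.1 ± 2.37 FPKM in WT (SD, n = 3 each). The log2(FPKM + 1) difference of 0.26 (SE 0.069, 95% confidence interval 0.09 to 0.42) did not pass at a limma adjusted p of 0.073, and passed at 0.049 when no minimum level was set. The ratio of the summed FPKM of Tcf7 and Lef1 to that of Ctnnb1 was 2.80, 2.73 and 2.81 in DKO libraries 0, 1 and 2, against 6.96, 6.85 and 6.84 in WT libraries 0, 1 and 2. Within each group this ratio hardly varied (2.78 ± 0.0413 in DKO and 6.88 ± 0.0630 in WT, SD, n = 3 each), and the groups lay apart at the smallest p that the exact two-sided permutation test can give, 0.1. Tcf7 and Lef1 were lower and Ctnnb1 higher in every DKO library, so this separation had to follow. It adds no evidence beyond the single genes. The ratio is one of RNA levels and says nothing of how much protein was bound.

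Tle3 was the only Groucho gene past the test. It lies on chromosome 9 at 61372366 to 61418497, plus strand, and like its relatives encodes a corepressor that TCF/LEF, Runx and other factors recruit. It held 24.7, 27.5 and 26.8 FPKM in DKO libraries 0, 1 and 2, against 35.1, 36.0 and 35.8 FPKM in WT libraries 0, 1 and 2. The groups did not overlap, with 26.4 ± 1.45 FPKM in DKO and 35.6 ± 0.460 FPKM in WT (SD, n = 3 each), and the log2(FPKM + 1) difference was -0.42 (SE 0.067, limma adjusted p = 0.017). Its call rests on all the libraries but WT library 1: the limma adjusted p was 0.065, 0.062 and 0.056 without DKO library 0, 1 or 2, and 0.0501 and 0.059 without WT library 0 or 2. The size of the difference stayed between -0.45 and -0.38 over the alternatives run.

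Tle4, on chromosome 19 at 14448150 to 14598051, minus strand, went the same way as Tle3 without passing the test. DKO libraries 0, 1 and 2 held 20.6, 19.8 and 21 FPKM, against 26.3, 24.7 and 23.6 FPKM in WT libraries 0, 1 and 2. No DKO library reached the lowest WT library, and the log2(FPKM + 1) difference was -0.27 (SE 0.068, 95% confidence interval -0.44 to -0.10, limma adjusted p = 0.064). Tle1, on chromosome 4 at 72117142 to 72200919, minus strand, held 13.7, 12.9 and 11.3 FPKM in DKO libraries 0, 1 and 2, against 9.64, 10.4 and 12.8 FPKM in WT libraries 0, 1 and 2. These values overlapped, and the difference of 0.20 (95% confidence interval -0.10 to 0.50) had a limma adjusted p of 0.36. Tle2, on chromosome 10 at 81574561 to 81590845, plus strand, was below the minimum for testing. It held 0.769, 0.986 and 1.05 FPKM in DKO libraries 0, 1 and 2, against 0.891, 0.571 and 0.651 FPKM in WT libraries 0, 1 and 2, and the groups overlapped.

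Among the Groucho genes, Tle3 had a smaller share in every DKO library than in any WT library. It took 41.4%, 44.9% and 44.6% of the summed FPKM of Tle1 to Tle4 in DKO libraries 0, 1 and 2, against 48.8%, 50.3% and 49.2% in WT libraries 0, 1 and 2. The groups did not overlap (43.6% ± 1.96 in DKO and 49.4% ± 0.757 in WT, SD, n = 3 each), a difference of -5.79 percentage points at the smallest p of the exact two-sided permutation test, 0.1. Tle3 was itself lower in every DKO library, so this share is not evidence separate from that gene. Aes (also called Tle5), a short Groucho relative that lacks the WD repeats and was counted outside the 10 genes, stood above all of them in DKO and below Tcf7 alone in WT. It held 429, 390 and 353 FPKM in DKO libraries 0, 1 and 2, against 390, 466 and 458 FPKM in WT libraries 0, 1 and 2. These overlapped, with a log2(FPKM + 1) difference of -0.16 (SE 0.13, limma adjusted p = 0.47).

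Axin2, a scaffold of the destruction complex and a textbook feedback target of beta-catenin with TCF, lies on chromosome 11 at 108920349 to 108950783, plus strand. DKO libraries 0, 1 and 2 held 10.7, 9.31 and 9.69 FPKM, against 11.4, 8.39 and 11.9 FPKM in WT libraries 0, 1 and 2. The DKO values lay within the WT range, and the difference of -0.07 on the log2(FPKM + 1) scale (95% confidence interval -0.41 to 0.26) had a limma adjusted p of 0.76. Apc, the large scaffold that presents beta-catenin for phosphorylation, held 7.27, 7.63 and 10.4 FPKM in DKO libraries 0, 1 and 2, against 9.03, 5.84 and 6.79 FPKM in WT libraries 0, 1 and 2. Apc also overlapped, with a difference of 0.20 (95% confidence interval -0.26 to 0.66, limma adjusted p = 0.53). Its highest values in each group were in DKO library 2 and WT library 0, the libraries in which Tle1 was lowest.

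**Figure D2:**
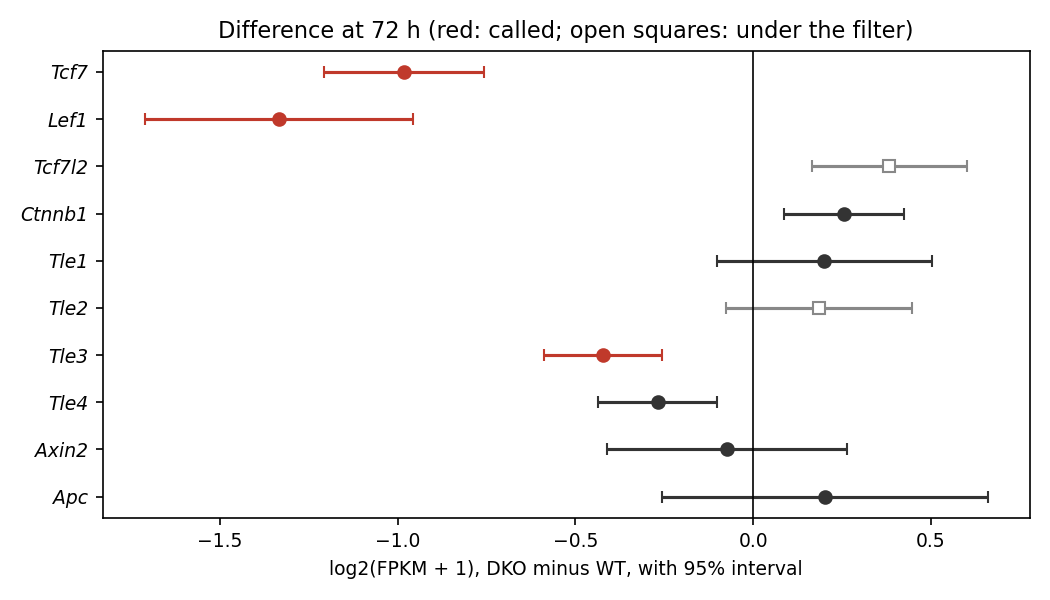
Difference DKO minus WT at 72 h in log2(FPKM + 1) for each of the 10 genes, with bars for the 95% confidence interval, which is not adjusted for the number of genes. Lef1 at -1.33, Tcf7 at -0.98 and Tle3 at -0.42 passed the limma test, and Tcf7l2 and Tle2 were fitted with the minimum lowered to 0.1 FPKM.

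By level per length, DKO cells held Tcf7 first, then Ctnnb1, Lef1, Tle3, Tle4, Tle1, Axin2, Apc, Tle2 and Tcf7l2. In WT cells the order was Tcf7, Lef1, Ctnnb1 and then the same genes in the same order. Lef1 was thus below Ctnnb1 in every DKO library and above it in every WT library. Neighbours whose libraries overlapped were Axin2 with Apc and Tle2 with Tcf7l2 in DKO, and Tle1 with Axin2 and Axin2 with Apc in WT. Tcf7 stood 2.35-fold above Ctnnb1, the next gene, in DKO, and 4.19-fold above Lef1, the next gene, in WT.

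The 3 calls were lost when a pair of libraries was left out. Without WT library 0 and DKO library 2, which had the highest correlation of deviations from their group means across genes (r = 0.133), 0 of the 8 tested genes passed the limma test, and 5 had an unadjusted p under 0.05. Among all 10723 genes 10 (0.0933%) then passed and 23.3% had an unadjusted p under 0.05. This exclusion was chosen after the data were seen, and leaves 2 libraries a group. The log2(FPKM + 1) differences without them were -0.96 for Tcf7, -1.34 for Lef1 and -0.45 for Tle3 (limma adjusted p = 0.10, 0.12 and 0.12).

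The authors' deposited table also compares both genotypes before culture, at 0 h, and each genotype over the 72 h. Per-library values at 0 h were not used here, so these are the authors' fold changes and q-values alone, and the comparisons share groups with one another. At 0 h, 2 of the 10 genes were higher and 4 lower in DKO at q under 0.05 in the authors' deposited table, against 14.7% and 16.9% of all genes they tested (31.6% in either direction). At 72 h, 1 of 10 was higher and 3 lower in the authors' deposited table, against 6.46% and 9.87% of genes (16.3% in either direction). The lower genes include the targeted Lef1 at 0 h, and the targeted Lef1 and Tcf7 at 72 h. Lef1 had authors' log2 fold changes of -1.51 at 0 h and -1.37 at 72 h, and Tcf7l2 of 1.35 and 1.15, all called in the authors' deposited table. Tcf7, the other targeted gene, was not called at 0 h in the authors' deposited table, with a log2 fold change of -0.10 (q = 0.53, DKO at 93.3% of WT), and was called at 72 h with -0.98. Ctnnb1 was higher at 0 h in the authors' deposited table (0.33, q = 0.0014) and not called at 72 h (0.26, q = 0.28). Tle3 was called lower at both times in the authors' deposited table, with -0.28 at 0 h (q = 0.014) and -0.44 at 72 h (q = 0.020). Tle4 was called at 0 h (-0.67, q = 0.00031) and not at 72 h (-0.28, q = 0.18) in the authors' deposited table, and Tle2 likewise (-0.64, q = 0.018 at 0 h and 0.41, q = 0.46 at 72 h). Tle1, Axin2 and Apc were called at neither time in the authors' deposited table. Whether the genotype difference of any gene changed between 0 h and 72 h was not tested.

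Over the 72 h of culture more of these genes were called lower than higher in either genotype. In the authors' deposited table, DKO cells at 72 h had 2 of the 10 genes above and 5 below their 0 h level, against 24.8% and 20.4% of genes (45.2% in either direction). For WT cells the authors' deposited table calls 1 of the 9 genes they tested higher and 7 lower, against 25.8% and 22.1% of genes (47.9% in either direction). Tcf7 had a log2 fold change over culture of -1.33 in DKO (39.8% of the 0 h level) and -0.43 in WT (74.4%, q = 0.025) in the authors' deposited table. Lef1 had -0.84 in DKO and -0.97 in WT, and Tle3 -1.04 in DKO and -0.86 in WT, each called in the authors' deposited table. Ctnnb1 was higher after culture in both genotypes in the authors' deposited table, at 0.51 in DKO and 0.60 in WT. Axin2 (-0.46 in DKO and -0.53 in WT) and Apc (-0.45 in DKO and -0.63 in WT) were lower after culture in both genotypes in the authors' deposited table. Tle1 was called in DKO (0.52, q = 0.0034) and not in WT (0.34, q = 0.087), while Tle4 was not called in DKO (-0.12, q = 0.39) and was in WT (-0.49), all in the authors' deposited table. Tle2 had 0.28 in DKO (q = 0.40) and -0.75 in WT (q = 0.021) in the authors' deposited table, and Tcf7l2 0.02 in DKO (q = 0.96).

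**Figure D3:**
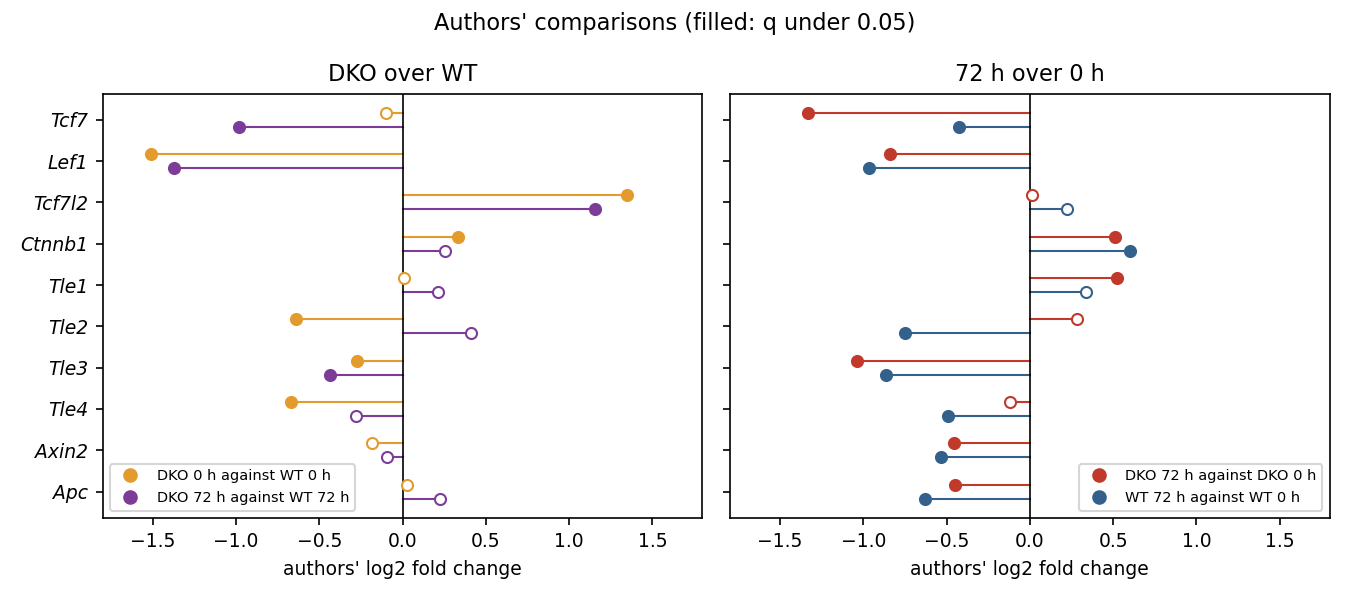
Log2 fold changes of the 10 genes in the authors' deposited table, DKO over WT at each time on the left and 72 h over 0 h in each genotype on the right, with filled points for q under 0.05. Tcf7 is at -0.10 and open at 0 h and at -0.98 and filled at 72 h, while Lef1 is filled in all 4 comparisons.

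Further genes of the pathway were read from the same test at 72 h. Of 86 further genes in 9 lists, 46 were tested, of which 3 were higher and 1 lower in DKO (limma adjusted p under 0.05) beside 4.31% and 6.36% of all genes tested. Of the 3 higher genes, 2 (Cdh1 and Prdm1) reached the minimum for testing only through their DKO level. Their median log2(FPKM + 1) difference was 0.06, beside 0.0082 for all genes, and 14 of the 46 did not overlap between groups, beside 34.1% of all genes tested. The call of all 4 genes was lost without WT library 0 and DKO library 2, when 8 of the 46 had an unadjusted limma p under 0.05, beside 23.3% of all genes. The authors' deposited table tested 54 of the 86 and calls 8 higher and 4 lower, beside 6.46% and 9.87% of all genes they tested. The 8 higher are Cdh1, Prdm1, Runx2, Runx1, Sox4, Bcl9l, Btrc and Jup. The 4 lower are Ctnna1, Ctnnal1, Cd44 and Tcf7l1.

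Both tested catenin and cadherin partners passed, in opposite directions, beside 4.31% of all genes tested called higher and 6.36% lower. Of these partners, Cdh1 reached the minimum for testing only through its DKO level. Cdh1 encodes E-cadherin, which holds beta-catenin at the membrane. It had 75.0, 37.4 and 36.4 FPKM in DKO libraries 0, 1 and 2, against 0.669, 1.58 and 0.605 FPKM in WT libraries 0, 1 and 2. The groups were far apart, with a log2(FPKM + 1) difference of 4.65 (SE 0.33, limma adjusted p = 0.0026). Ctnna1 encodes alpha-catenin, which joins that complex to actin, and had 4.89, 3.84 and 3.82 FPKM in DKO libraries 0, 1 and 2, against 10.2, 13.3 and 9.16 FPKM in WT libraries 0, 1 and 2. It was lower in every DKO library, by a log2(FPKM + 1) difference of -1.19 (SE 0.16, limma adjusted p = 0.0096). Jup, which encodes plakoglobin, a relative of beta-catenin, held 1.73, 1.46 and 0.933 FPKM in DKO libraries 0, 1 and 2, against 0.576, 0.417 and 0.548 FPKM in WT libraries. These groups did not overlap. The mean of Jup over both groups, 0.944 FPKM, was below the minimum for testing. It is called higher in the authors' deposited table (log2 fold change 1.42, q = 0.00064).

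Of 6 tested factors that recruit Groucho proteins, 2 were higher in DKO and 0 lower, beside 4.31% and 6.36% of all genes tested, and 1 of the 2, Prdm1, was tested only through its DKO level. Runx2 had 9.56, 9.76 and 9.74 FPKM in DKO libraries 0, 1 and 2, against 4.58, 5.78 and 3.65 FPKM in WT libraries 0, 1 and 2 (log2(FPKM + 1) difference 0.93, SE 0.14, limma adjusted p = 0.015). Prdm1, which encodes the repressor Blimp-1 of effector lymphocytes, had 1.62, 1.93 and 2.52 FPKM in DKO libraries 0, 1 and 2, against 0.148, 0.247 and 0.387 FPKM in WT libraries 0, 1 and 2. Its difference was 1.26 (SE 0.17, limma adjusted p = 0.011). Ikzf1, which encodes Ikaros, averaged 162 ± 6.83 FPKM in DKO and 147 ± 12.8 FPKM in WT (SD, n = 3 each, limma adjusted p = 0.40). Runx3, a factor of the CD8 lineage, averaged 80.8 ± 7.55 FPKM in DKO and 72.8 ± 9.85 FPKM in WT (SD, n = 3 each, limma adjusted p = 0.49).

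No gene passed the limma test in the other lists that held tested genes, beside 10.7% of all genes tested. For the counts that follow, 26.2% of all genes tested had an unadjusted limma p under 0.05, and 34.1% did not overlap between groups. In the destruction complex, 0 of 9 tested genes passed and 1 had an unadjusted limma p under 0.05, and its most abundant genes were close to level: the kinase gene Csnk1a1 averaged 108 ± 2.36 FPKM in DKO and 107 ± 3.08 FPKM in WT, and Gsk3a 65.2 ± 2.19 FPKM in DKO and 63.7 ± 4.41 FPKM in WT (SD, n = 3 each). The 1 gene was Btrc. It held 2.98, 2.88 and 2.87 FPKM in DKO libraries 0, 1 and 2, against 1.99, 1.90 and 2.11 FPKM in WT libraries 0, 1 and 2. Btrc did not overlap (limma adjusted p = 0.055) and is called higher in the authors' deposited table (log2 fold change 0.54, q = 0.017). Among ligand secretion and receptor genes 7 of 20 reached the minimum and 0 passed (0 at an unadjusted limma p under 0.05), led by the Dishevelled genes Dvl1 (26.1 ± 3.52 FPKM in DKO and 25 ± 3.42 FPKM in WT) and Dvl2 (21.7 ± 1.84 FPKM in DKO and 21.1 ± 2.84 FPKM in WT). The coactivator genes, with 8 tested, 0 called and 2 at an unadjusted limma p under 0.05, included Bcl9l, a beta-catenin adaptor, which averaged 63.6 ± 2.33 FPKM in DKO and 42.8 ± 10.3 FPKM in WT without overlap (limma adjusted p = 0.11). Bcl9l is called higher in the authors' deposited table (log2 fold change 0.57, q = 0.0017). Smarca4, a chromatin remodeller, averaged 56.9 ± 0.652 FPKM in DKO and 56.5 ± 4.99 FPKM in WT. Of the inhibitors, with 8 tested, 0 called and 3 at an unadjusted limma p under 0.05, Hdac1, a histone deacetylase that Groucho recruits, averaged 99.3 ± 8.76 FPKM in DKO and 124 ± 16.3 FPKM in WT without overlap (limma adjusted p = 0.19). The corepressor gene Ctbp1 averaged 156 ± 11.1 FPKM in DKO and 156 ± 8.27 FPKM in WT.

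The textbook beta-catenin targets and feedback genes beyond Axin2 gave 0 calls by limma among 4 tested of 13, with 1 at an unadjusted p under 0.05. Of all genes tested, 10.7% were called and 26.2% had an unadjusted limma p under 0.05. Myc averaged 155 ± 6.09 FPKM in DKO and 137 ± 8.57 FPKM in WT (SD, n = 3 each, limma adjusted p = 0.26). Ccnd2, a cyclin gene, averaged 142 ± 7.56 FPKM in DKO and 118 ± 19.9 FPKM in WT (limma adjusted p = 0.27). For both genes each DKO library was above each WT library, as for 17% of all genes tested. Cd44, the adhesion receptor whose protein was part of the sort gate and which is named here after its values were seen, lay the other way. It held 1.49, 1.64 and 1.27 FPKM in DKO libraries 0, 1 and 2, against 2.87, 5.11 and 1.88 FPKM in WT libraries 0, 1 and 2, without overlap. Its log2(FPKM + 1) difference of -0.73 did not pass by limma (SE 0.28, adjusted p = 0.17), and it is called lower in the authors' deposited table (log2 fold change -1.16, q = 0.00064). Of 3 HMG-box genes of T cells only Tox was tested, at 5.68 ± 0.537 FPKM in DKO and 6.94 ± 1.2 FPKM in WT (limma adjusted p = 0.33), and Sox5 was near 0 at 0.0525 ± 0.0152 FPKM in DKO and 0.0362 ± 0.0116 FPKM in WT.

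**Figure D4:**
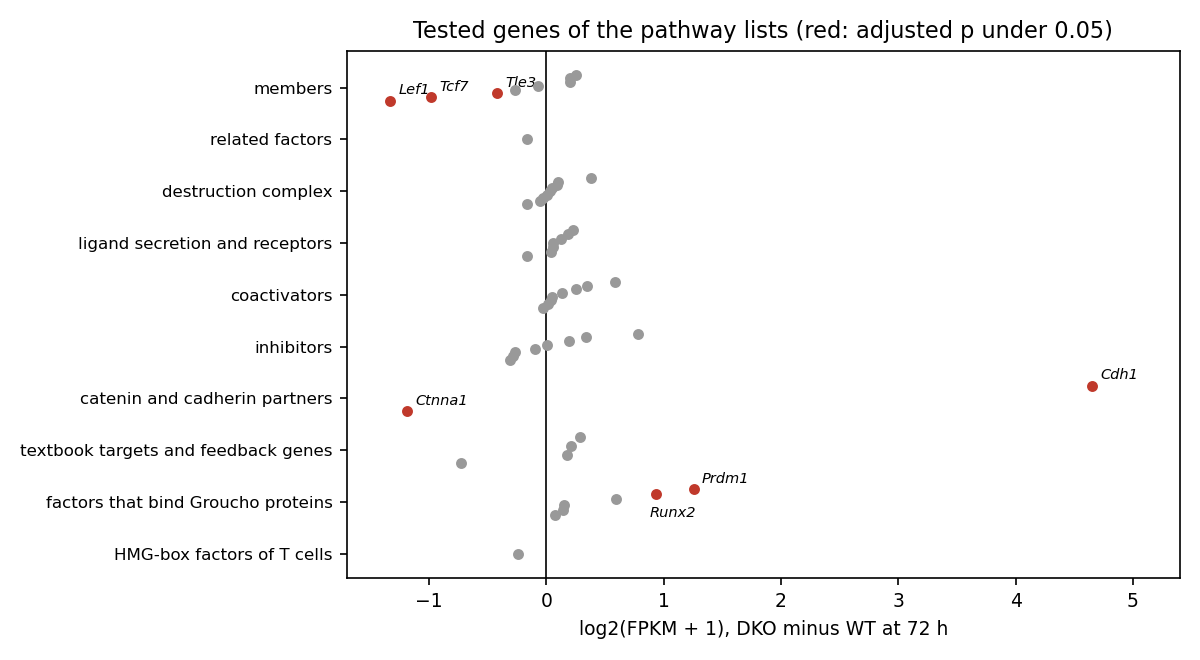
Difference DKO minus WT at 72 h in log2(FPKM + 1) for each tested gene of the 10 and of the 9 further pathway lists, 1 point a gene, red where the limma adjusted p is under 0.05. The red points are Cdh1 at 4.65, Prdm1 at 1.26, Runx2 at 0.93, Tle3 at -0.42, Tcf7 at -0.98, Ctnna1 at -1.19 and Lef1 at -1.33.

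By correlation of log2(FPKM + 1) over the 6 libraries, the tested genes most like Tcf7 were Wee1 (Pearson r = 0.999), Ampd1 (0.999) and Drc1 (0.998). The kinase gene Wee1 held 5.23, 5.07 and 5.21 FPKM in DKO libraries 0, 1 and 2, against 11.1, 11 and 10.5 FPKM in WT libraries 0, 1 and 2. Most like Lef1 were Echdc2 (r = 0.997), Vipr1 (0.996) and Trpm1 (0.996). Ampd1, Echdc2 and Trpm1 reached the minimum for testing only through their WT level. Vipr1, a receptor gene for vasoactive intestinal peptide, held 4.75, 5.59 and 5.01 FPKM in DKO libraries 0, 1 and 2, against 15.7, 12.2 and 17.2 FPKM in WT libraries 0, 1 and 2, and like Lef1 was lowest among WT libraries in library 1. The 6 points fall into the groups themselves, so these values describe a shared difference between DKO and WT and carry no p.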

How the data were processed

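RNA of CD8+ T cells was sequenced on a HiSeq-2000, per the labels, in 3 DKO and 3 WT libraries. Tools named in the submitters' processing notes are TopHat2 2.1.0, Cuffdiff 2.2.1 and FastQC, and the builds named, with no role, are mm10 and mm9. No source used here gives the annotation. In 1 Cuffdiff table the authors deposited FPKM per library and, per comparison, a log2 fold change with its p-value and q-value. Per-library columns of 6 libraries at 0 h belong to no sample of the series and were not used. The p-values the authors list as 1 were taken as not tested.

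Here log2(FPKM + 1) was tested for genes whose mean reached 1 FPKM, with limma 3.58.1 (R 4.3.3, mean-variance trend, group as the only term, two-sided, Benjamini-Hochberg at 0.05), which understates folds of low genes. Ratios were compared by exact permutation. FPKM are not counts, so no count model was used. Relative depth, from steps between low FPKM values, was 1.10 to 1.19 in DKO and 1 to 1.23 in WT libraries, and rests on 12.8% to 17% of the genes compared with WT library 0 in each of the other 5 libraries. Named genes are the 10, called genes of each pathway list with its 2 most abundant, and the 3 genes most correlated with Tcf7 and with Lef1. Pathway genes called only by the authors at 72 h were named after their values were seen. The genes and lists were chosen with earlier results of these data known. Sequences are RefSeq GRCm38.p6. Alternatives covered pseudocounts, filters, scalings, variance priors, a block, left-out libraries and the authors' calls. Figures were drawn with matplotlib 3.10.9.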

Additional observations from a re-analysis of the deposited data

How the results depend on the processing

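Tcf7 and Lef1 kept their direction and their call in 17 of 18 alternatives each, and the exception is the exclusion of WT library 0 and DKO library 2, added after the data were seen. The count of all genes called was 1144 (462 higher, 682 lower), against 10 without these libraries, 379 to 748 with each library left out in turn and 1886 by the authors' q. Of the 10 genes 3 were called, against 5 with no minimum level (Tcf7l2 and Ctnnb1 added), 2 to 3 with each library left out and 0 without both libraries. The 4 called pathway genes became 2 to 4 with each library left out, 0 without both libraries and 12 by the authors' q. The Axin2 difference ranged from -0.22 to 0.012 with each library left out, and turned sign without WT library 2. With each library left out, the difference ranged from -5.44 to -1.97 percentage points for the Lef1 share, from -6.45 to -4.66 for the Tle3 share and from -4.12 to -4.07 for the ratio to Ctnnb1. The cause of these changes was not tested, and settings that leave out libraries have fewer samples.

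With the column number as a replicate block 356 genes and 2 pathway genes were called, and Tle3 lost its call (limma adjusted p = 0.097). Same-numbered libraries did not deviate together (r = -0.168, 0.0363 and -0.0143 for numbers 0, 1 and 2). Deviations from means of 3 libraries cannot settle whether libraries were paired by number, so pairing is unknown. Scaling alternatives moved the median of all genes by less than 0.1 on the log2 scale. Absolute depth is unknown, so levels near 0, as of Tcf7l2 and Tle2, have no counting interval.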
